A study of Mus musculus with 8 samples.

Results

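The matrix metalloproteinases *Mmp2*, *Mmp9*, *Mmp11*, *Mmp14* and *Mmp15*, the tissue inhibitors *Timp1*, *Timp2* and *Timp3*, and the related protease *Adamts1* were followed in RNA-seq counts of NMuMG cells, an established line of mouse mammary gland epithelium. These 9 of the 37310 genes in the count table were taken by symbol as a family, with earlier results of these data known. Enough counts to be tested were present for 7 of them, while *Mmp2* and *Mmp9* were below the filter on low counts. Control cells and cells depleted of the long non-coding RNA *Lnc-Nr6a1* were each left untreated or given 10 ng/ml TGF-β1 for 2 h, with 2 libraries in each of the 4 groups. Depletion was done with CRISPR-Cas9 by removing part of the promoter and the first exon in clones grown from single sorted cells. How many clones the libraries labelled knockout (KO) stand for is not given in the sources used here. The study calls the replicates biological without saying whether they were separate cultures, so p-values measure the spread between these libraries, and a clone cannot be told apart from the deletion.

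Matrix metalloproteinases are zinc-dependent proteases that cut collagens, laminin and other matrix and cell surface proteins, and they are made as inactive precursors. MMP2 and MMP9 are the secreted gelatinases, MMP11 (stromelysin-3) is secreted already processed by furin, and MMP14 and MMP15 are anchored in the membrane, where MMP14 together with TIMP2 activates the precursor of MMP2. TIMPs bind the active site of these proteases, and turnover of the basement membrane by this system is a known part of branching and involution of the mammary gland and of epithelial-mesenchymal transition.

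The libraries held 4297832 to 13574397 counts, the fewest in KO 1. The targeted gene (*Gm13507*) had 3 and 14 counts in untreated control, 11 and 7 in untreated KO, 25 and 35 in treated control and 0 in both treated KO libraries. Thus it separated the genotypes after TGF-β but did not check the labels of the untreated libraries, which are called KO-labelled, and KO 1 and KO 2 where a library is named. *Mmp15* and *Pcsk6*, described further on, differed between genotypes in the same direction in untreated as in treated libraries. Both are among the genes called in both states, so this does not check the labels either. *Smad7*, *Skil* and *Snai1*, direct or early targets of TGF-β, all rose in both genotypes. Of the epithelial markers, *Krt8*, *Krt18*, *Krt19* and *Cdh1* were abundant. *Krt7* had 4 to 14 counts, *Epcam* had 0 to 2 counts and *Cldn3* and *Cldn7* were at 0 in all 8 libraries. *Cldn4* had 0 or 1 count in untreated libraries and 13 to 162 in treated ones. The 9 epithelial markers summed to 5873–5951 CPM (counts relative to the library total, adjusted between libraries by TMM factors) in control, 8029–10940 in treated control, 6632–6970 in KO-labelled cells and 7939–10400 in treated KO. The 8 fibroblast markers summed to 0.797–4.85 CPM with *Lum* and *Thy1* at 0, the 6 immune markers to 2.30–5.71 CPM with *Emr1* at 0, and the 4 endothelial markers to 0–0.847 CPM with *Kdr* at 0. In bulk RNA, fewer cells of a type and less RNA per cell cannot be told apart. Between replicates, 48 genes (0.368% of those tested) differed by more than 4-fold in control, 158 (1.21%) in treated control, 164 (1.26%) in KO-labelled cells and 73 (0.56%) in treated KO. Treated control 1 and treated KO 2 had higher levels than their partners of several proteases described further on, so the calls are also set beside fits without these libraries. A fit that leaves out a treated library has an arm of 1 library, which is assumed to vary like the other groups.

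A gene was called where edgeR's quasi-likelihood test gave an adjusted p below 0.05 over the 13028 genes tested and the log2 fold change was above 0.5 or below -0.5. After TGF-β in control cells, *Timp1* and *Timp3* rose and *Mmp15* fell, which is 3 of 7 members against 9.16% of all genes tested (2 against 4.69% upward and 1 against 4.47% downward). In the cells labelled KO, TGF-β raised *Timp1*, *Timp3* and *Mmp14*, 3 of 7 against 6.82% (4.25% upward and 2.57% downward). Between untreated genotypes *Mmp15* was higher in the KO-labelled libraries, 1 of 7 against 1.83% (1.03% upward and 0.798% downward). After TGF-β *Mmp15* and *Mmp14* were higher and *Timp3* lower in treated KO, 3 of 7 against 15% of all genes (2 against 8.47% upward and 1 against 6.57% downward). The median log2 fold change of the 7 tested members was 0.42, 0.61, 0.28 and 0.40 in these comparisons, in this order, beside medians over all genes between -0.012 and 0.018, and it was the same with *Timp3* set to its bound where a group was at 0. Each group enters several of these comparisons, so they share libraries.

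**Figure D1:**
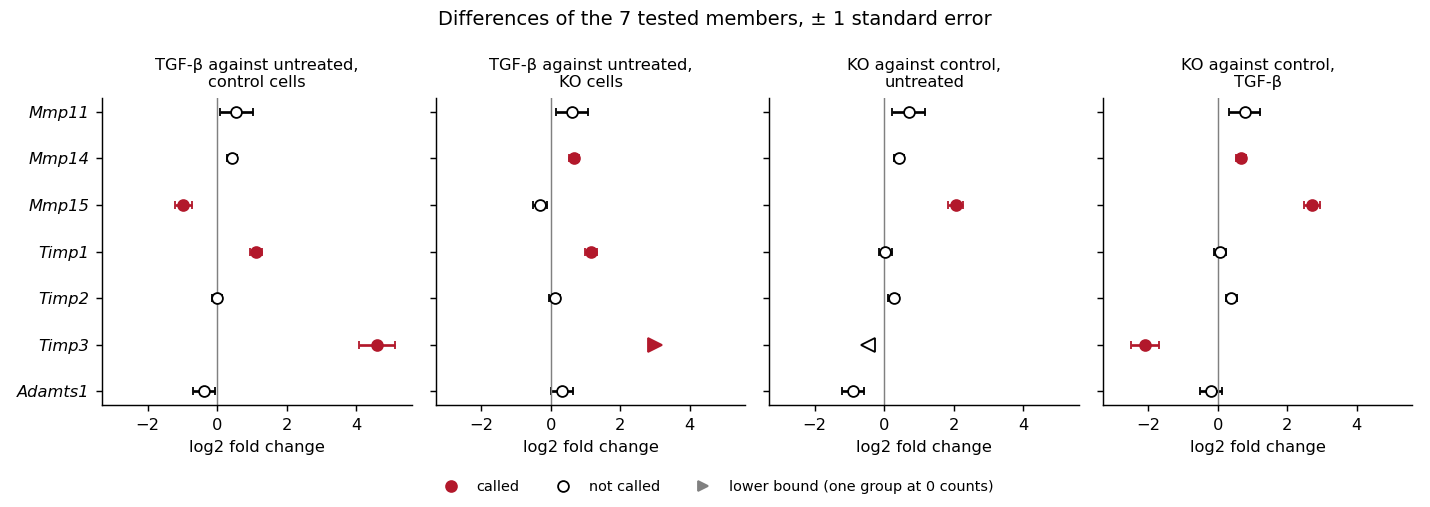
Log2 fold changes (x axis) of the 7 tested members in the 4 comparisons, with bars of ± 1 standard error. Filled points passed the thresholds, and triangles mark lower bounds where a group had 0 counts. *Mmp15* lies far to the right in both genotype comparisons, at 2.05 and 2.71, and *Timp1* near 0 in both, at 0.035 and 0.065.

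No member was called for an interaction of genotype and TGF-β with edgeR, and none had an unadjusted p below 0.05. DESeq2 and limma-voom also called 0 of the 7. Over all genes edgeR called 0 of 13028 (0%), with 1134 at an unadjusted p below 0.05, DESeq2 called 25 and limma-voom 0. Hence a change called in a single genotype is not shown to differ between genotypes.

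Promoter windows of the 4 members called in any comparison are printed because they show the sequence at which these genes start. They are RefSeq windows on GRCm38.p6 from 250 bases before to 50 after the gene's start, and 7 of the 9 members matched by symbol, all but *Mmp2* and *Mmp9*. Capitals mark the GC box GGGCGG on either strand and the AP-1-like TGAGTAA, the latter chosen after the *Timp1* window had been read.
*Mmp14*, chr14:54431348-54431647, plus strand: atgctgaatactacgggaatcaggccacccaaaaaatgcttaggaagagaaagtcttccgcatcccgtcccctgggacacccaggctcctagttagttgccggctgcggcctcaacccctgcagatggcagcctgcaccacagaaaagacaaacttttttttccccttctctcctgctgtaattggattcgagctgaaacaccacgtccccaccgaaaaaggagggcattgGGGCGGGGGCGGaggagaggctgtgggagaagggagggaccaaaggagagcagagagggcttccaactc
*Mmp15*, chr8:95352046-95352345, plus strand: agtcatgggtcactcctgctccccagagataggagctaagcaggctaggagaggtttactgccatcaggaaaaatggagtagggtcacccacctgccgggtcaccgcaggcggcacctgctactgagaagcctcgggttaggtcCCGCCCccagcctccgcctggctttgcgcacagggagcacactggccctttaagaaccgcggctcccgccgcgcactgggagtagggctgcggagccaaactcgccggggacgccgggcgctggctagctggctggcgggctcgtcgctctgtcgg
*Timp1*, chrX:20869916-20870215, plus strand: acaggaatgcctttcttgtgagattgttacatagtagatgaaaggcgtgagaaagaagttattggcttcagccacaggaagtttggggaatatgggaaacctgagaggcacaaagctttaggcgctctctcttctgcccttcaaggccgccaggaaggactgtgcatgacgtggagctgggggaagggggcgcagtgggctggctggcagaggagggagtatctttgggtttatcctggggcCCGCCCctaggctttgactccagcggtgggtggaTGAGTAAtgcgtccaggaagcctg
*Timp3*, chr10:86300162-86300461, plus strand: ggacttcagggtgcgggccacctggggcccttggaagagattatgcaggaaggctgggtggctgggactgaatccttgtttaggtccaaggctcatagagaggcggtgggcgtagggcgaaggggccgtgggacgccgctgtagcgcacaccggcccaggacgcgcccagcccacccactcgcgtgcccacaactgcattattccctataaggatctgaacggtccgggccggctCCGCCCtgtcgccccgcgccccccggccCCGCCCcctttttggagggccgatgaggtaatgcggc
All 7 member windows held the GC box, which 35.7% of the 32851 windows in the table held. Those windows also cover genes that were not tested here. A share over the 13028 tested genes is not given, so no enrichment in the members is read from this. The matches began at positions -19 and -13 from the start in *Mmp14*, directly beside each other, at -106 in *Mmp15*, at -8 in *Timp1* and at -15 and 14 in *Timp3*. TGAGTAA began at position 27 in *Timp1* and was in no other member window, and 2.68% of all windows held it on either strand. The AP-1 motif TGANTCA, found in 7.81% of all windows, was in none of the 7, and the SMAD motif CAGAC, found in 49.6%, was only in *Mmp11*, at -104. TATAAA, in 13.6% of all windows, was only in *Adamts1*, at -32. These matches describe letters and are not sites of binding.

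Per kilobase of merged exons, the scale on which genes can be compared, *Timp2* was the most abundant member in every group. Its mean was 189.8 CPM per kb in control, 189 in treated control, 230.2 in KO-labelled cells and 249 in treated KO. *Timp1* came next at 47.2, 103, 48.4 and 108 CPM per kb in the same order, and *Mmp14* followed at 26.7, 35.7, 36.0 and 57.1. The libraries of these 3 genes did not overlap in any group. All other members were lower in every group. In control cells *Adamts1* (3.07 CPM per kb) was above *Mmp11* (1.81) and *Mmp15* (1.79), whose libraries overlapped, and *Timp3* (0.0893) was last of the detected members. In treated control, *Mmp11*, *Adamts1* and *Timp3* overlapped at means of 2.66, 2.35 and 2.19 CPM per kb, above *Mmp15* at 0.908. In KO-labelled cells the order was *Mmp15* (7.43), *Mmp11* (2.92) and *Adamts1* (1.65) without overlap, and in treated KO *Mmp15* (5.99) overlapped *Mmp11* (4.52), with *Adamts1* (2.06) and *Timp3* (0.517) below.

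**Figure D2:**
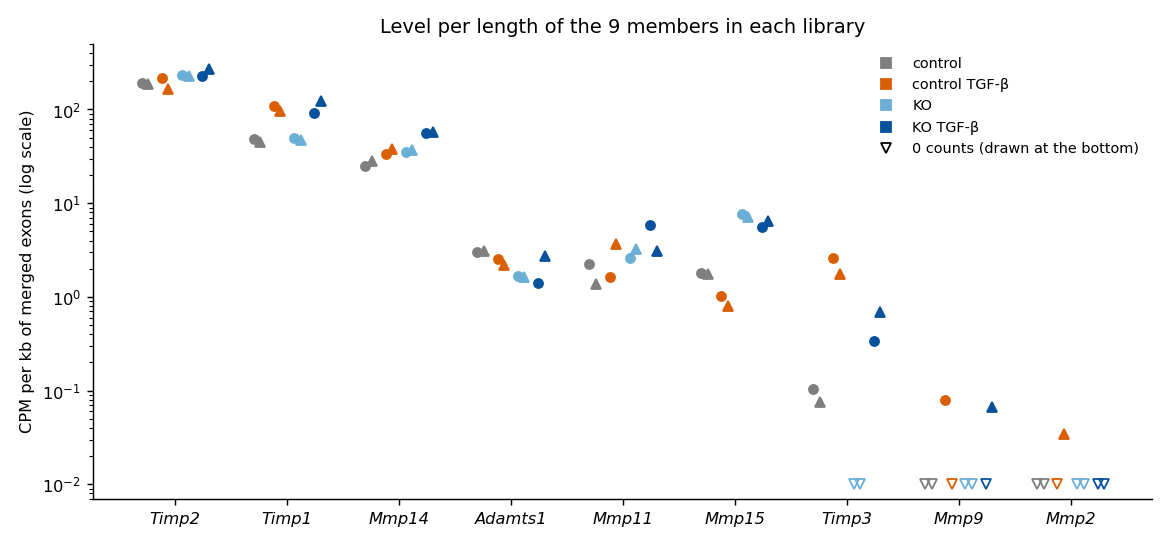
Level of each of the 9 members in each library in CPM per kb of merged exons on a log axis, with circles for replicate 1 and triangles for replicate 2. Open triangles at the bottom are libraries with 0 counts. *Timp2*, *Timp1* and *Mmp14* stand above the other members in all 4 groups.

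*Mmp15* encodes a membrane-anchored metalloproteinase (MT2-MMP) and lies on chromosome 8, 97876168–97898193, plus strand, of NCBIM37, the build of the table's gene identifiers. Its counts were 65 and 63 in control, 47 and 33 in treated control, 152 and 234 in KO-labelled cells and 294 and 354 in treated KO. These are 7.84 and 7.69, 4.40 and 3.49, 33.5 and 31.1, and 24.0 and 28.1 CPM. Every KO-labelled library was above every control library, and the 4 groups did not overlap with each other. Untreated KO-labelled cells had 4.15-fold the control level (log2 2.05, SE 0.22, adjusted p = 0.00245, edgeR). After TGF-β the difference was 6.56-fold (log2 2.71, SE 0.23, adjusted p = 0.000477, edgeR). These 2 calls held in all 19 and all 20 alternatives tried, at log2 values of 2.00–2.27 and 2.56–2.92, among them the fits without treated control 1 and without treated KO 2.

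Within control cells *Mmp15* fell after TGF-β, with a log2 difference of -0.97 (SE 0.24, edgeR adjusted p = 0.0356). In the KO-labelled cells the value was -0.31 (95% interval -0.76 to 0.14, adjusted p = 0.41, edgeR). The difference between these responses was 0.66 (95% interval -0.033 to 1.35), with an unadjusted p of 0.0598 and an adjusted p of 0.592 in edgeR. The call in control cells rested on 33 to 65 counts and was lost in 10 of 19 alternatives (adjusted p from 0.0194 to 0.189). Among single libraries, it was lost without control 1 (adjusted p = 0.189), control 2 (0.137), treated control 2 (0.0989), KO 1 (0.068) or KO 2 (0.0681), all with edgeR, and held without treated control 1 and without treated KO 2.

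*Mmp14* encodes the main membrane-type collagenase (MT1-MMP, chromosome 14, 55050441–55060095, plus strand). Its level was 65.4 and 73.2 CPM in control, 86.5 and 98.8 in treated control, 91.0 and 96.0 in KO-labelled cells and 147 and 149.7 in treated KO. Treated KO was thus the highest group and control the lowest, while treated control and untreated KO-labelled cells overlapped. TGF-β raised *Mmp14* in the KO-labelled cells, with a log2 difference of 0.66 (SE 0.14, edgeR adjusted p = 0.025). In control cells the value was 0.42 (95% interval 0.10 to 0.74, adjusted p = 0.0974, edgeR), and the difference between the responses was 0.24 (95% interval -0.20 to 0.69). After TGF-β the level in treated KO was 1.60-fold that of control (log2 0.68, SE 0.14, adjusted p = 0.0145, edgeR), against a log2 difference of 0.43 (SE 0.14, adjusted p = 0.192) between untreated cells. Without KO 1, KO 2, treated KO 1 or treated KO 2 the call of the response in KO-labelled cells was lost (adjusted p = 0.177, 0.15, 0.0587 and 0.109 in this order, edgeR), although the log2 value stayed within 0.63–0.71. The treated genotype call was lost without treated KO 2 (adjusted p = 0.0742) and in a fit of the 4 treated libraries alone (0.0786), both with edgeR. With treated control 2 and treated KO 1 as the only treated libraries, the log2 values were 0.68 and 0.59, in a fit whose spread comes from the untreated groups alone.

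*Mmp11*, the secreted stromelysin-3 gene (chromosome 10, 75385967–75400678, minus strand), was at 5.91 and 3.66 CPM in control, 4.31 and 9.74 in treated control, 6.83 and 8.64 in KO-labelled cells and 15.6 and 8.26 in treated KO. The replicates differed more than those of any other tested member in control, and no comparison was called, with adjusted p between 0.266 and 0.548 in edgeR. The log2 differences were between 0.54 and 0.77 with standard errors of 0.44 to 0.48, so that a change of that size could not be told from the spread. The treated genotype difference of 0.77 was 0.25 without treated KO 1 and 1.47 without treated control 2. The TGF-β response in control cells of 0.54 turned to -0.15 without treated control 2 and was 1.01 without treated control 1. *Mmp2* had a single count, in treated control 2. *Mmp9* had 3 counts in treated control 1 and 3 in treated KO 2 and 0 in the other 6 libraries. A count of 0 allows up to 3 counts, or 0.238 to 0.661 CPM depending on the library, which covers counting error only. Neither gelatinase transcript was therefore detectable above this limit in untreated cells, and no fold change is given for them.

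*Timp1* (chromosome X, 20447292–20451861, plus strand) encodes a secreted inhibitor that acts on most soluble metalloproteinases and less well on membrane-anchored ones. It was at 43.5 and 40.3 CPM in control, 97.4 and 85.2 in treated control, 44.5 and 41.5 in KO-labelled cells and 81.3 and 109.6 in treated KO. Treated libraries lay above all untreated ones, and the genotypes overlapped in either state. TGF-β raised *Timp1* 2.18-fold in control cells (log2 1.12, SE 0.18, adjusted p = 0.00657) and 2.22-fold in the KO-labelled cells (log2 1.15, SE 0.18, adjusted p = 0.00614), both with edgeR. The responses differed by 0.030 on the log2 scale with a 95% interval of -0.53 to 0.59, and the genotypes by 0.035 (-0.37 to 0.44) untreated and 0.065 (-0.32 to 0.45) treated. Leaving out an untreated library removed these calls, to an adjusted p of 0.069 without control 1, 0.0668 without control 2, 0.0644 without KO 1 and 0.0899 without KO 2, with log2 values of 1.07 to 1.21 in edgeR. Without treated control 1 and treated KO 2 the log2 responses were 1.01 and 0.95. The gene lies within *Syn1* on the opposite strand, shares no exon bases with it, and *Syn1* had 0 to 25 counts.

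*Timp3* encodes the inhibitor that stays bound to the extracellular matrix and also blocks several ADAM and ADAMTS proteases (chromosome 10, 85763117–85812251, plus strand). It had 7 and 5 counts in control, 228 and 135 in treated control, 0 and 0 in KO-labelled cells and 34 and 71 in treated KO. In CPM these are 0.844 and 0.610, 21.4 and 14.3, 0 and 0, and 2.77 and 5.64, and no groups overlapped. TGF-β raised it 24.1-fold in control cells (log2 4.59, SE 0.52, adjusted p = 0.0023, edgeR), a call held in all 19 alternatives. In the KO-labelled cells the rise was at least 7.94-fold, computed against 3 counts per untreated library (adjusted p = 0.00579, edgeR). This call was lost without KO 2 (adjusted p = 0.0722, edgeR) and held without treated KO 2.

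Treated KO had 4.23-fold less *Timp3* than treated control, a log2 difference of -2.08 (SE 0.41, adjusted p = 0.0141, edgeR). Untreated, the KO-labelled level was at least 1.37-fold lower and not called (adjusted p = 0.149, edgeR), with 7 and 5 counts against 0 and 0. The treated difference was -2.34 with treated control 2 and treated KO 1 alone and -1.92 with treated control 1 and treated KO 2 alone, called in both fits. There each treated arm is 1 library and the spread comes from the untreated groups only, so these fits do not test the difference over treated replicates. It was -2.67 and called without treated KO 2 (adjusted p = 0.0277), but not called without treated KO 1 (log2 -1.65, adjusted p = 0.0577) or in the fit of the 4 treated libraries alone (adjusted p = 0.053), with edgeR. The untreated difference was called without the filter on low counts (adjusted p = 0.0109) and with treated control 1 and treated KO 2 as the only treated libraries (adjusted p = 0.04), again with edgeR. *Timp3* shares 1733 exon bases with *Syn3* on the opposite strand, and whether strand was used in counting is not given in the sources used here, so its counts are uncertain. *Syn3* itself had 51 and 66 counts in control, 24 and 43 in treated control, 19 and 31 in KO-labelled cells and 32 and 27 in treated KO, and what part the overlap had in the counts of *Timp3* was not tested.

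*Timp2*, whose product inhibits MMP2 and helps MMP14 to activate it (chromosome 11, 118162383–118217054, minus strand), was at 748 and 731 CPM in control, 835 and 639 in treated control, 898 and 895 in KO-labelled cells and 883 and 1055 in treated KO. KO-labelled libraries were above control libraries in both states. The log2 difference was 0.28 untreated (95% interval -0.074 to 0.63, adjusted p = 0.456) and 0.40 after TGF-β (95% interval 0.043 to 0.75, adjusted p = 0.12), neither called by edgeR. Without treated control 1 the treated difference was 0.62 and called (adjusted p = 0.0227, edgeR). The TGF-β response was -0.0049 on the log2 scale in control (95% interval -0.36 to 0.35) and 0.11 in KO-labelled cells (-0.24 to 0.46). The sign in control cells turned to 0.17 without treated control 2.

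**Figure D3:**
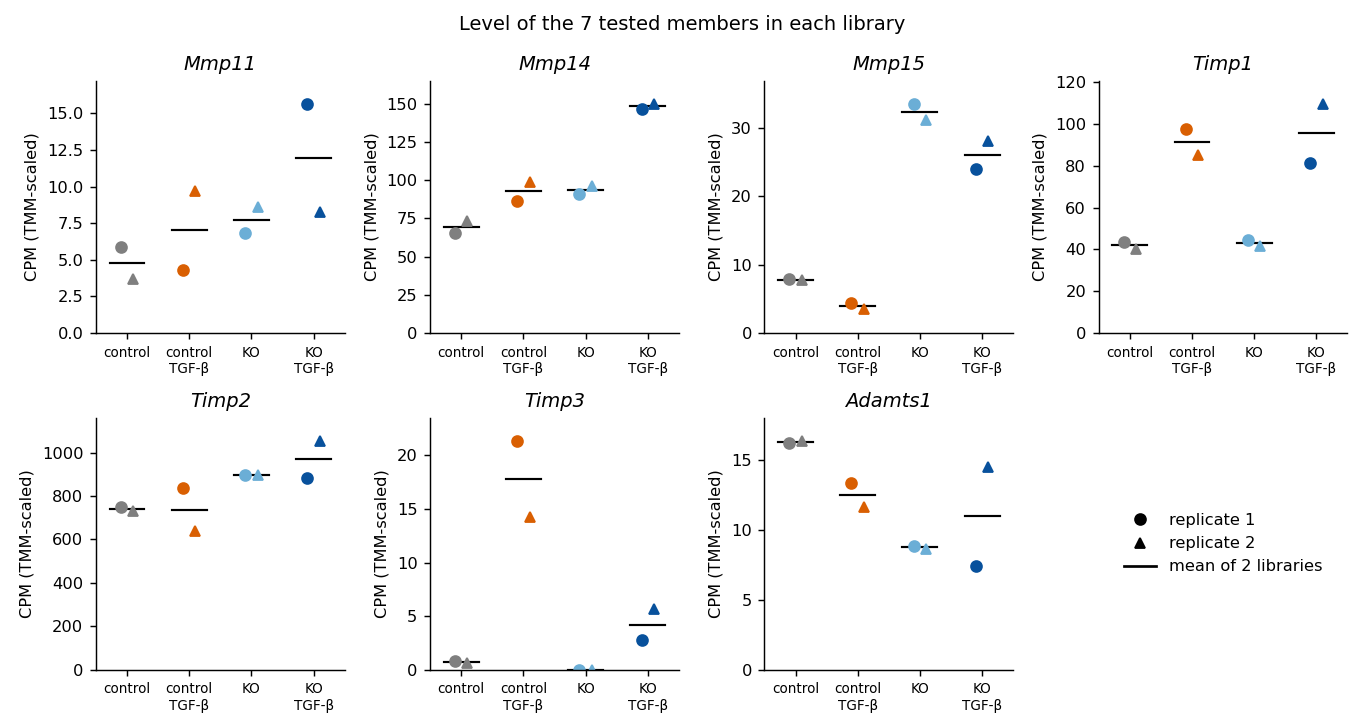
Level of the 7 tested members in each library in TMM-scaled CPM, with a panel and a linear axis from 0 for each gene, circles for replicate 1, triangles for replicate 2 and bars for the mean of 2 libraries. *Mmp15* is set apart by genotype (3.49–7.84 CPM in control libraries and 24.0–33.5 in KO-labelled ones), *Timp1* by treatment (40.3–44.5 untreated and 81.3–109.6 treated), and *Timp3* is highest in treated control, at 14.3 and 21.4.

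The composition of the inhibitor transcripts shifted with treatment. *Timp1* made up 16.9–20.3% of the summed CPM per kb of the 3 TIMPs in the 4 untreated libraries and 28.8–36.7% in the 4 treated ones, while *Timp2* made up 79.6–83.1% and 62.7–71.1%. *Timp3* reached at most 0.804%, in treated control 1. Among the 5 metalloproteinases that are members, *Mmp14* made up 77.3–92.4% of the summed CPM per kb in all 8 libraries. The share of *Mmp15* was 5.64–6.17% in control and 1.89–2.81% in treated control, below the 15.1–17.0% in KO-labelled cells and 8.12–9.61% in treated KO. These shares restate the levels and were not tested. The metalloproteinase shares leave out the genes that are not members. Of those, *Mmp13* was at 64.9 CPM per kb in treated control 1 and 249 in treated KO 2, above *Mmp14* at 33.3 and 57.7. In treated control 2 and treated KO 1 it was at 8.39 and 21.3, below *Mmp14* at 38.1 and 56.5.

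*Adamts1* encodes a secreted protease that cuts the proteoglycans aggrecan and versican (chromosome 16, 85794072–85803358, minus strand). It was at 16.2 and 16.4 CPM in control, 13.3 and 11.6 in treated control, 8.82 and 8.64 in KO-labelled cells and 7.42 and 14.5 in treated KO. The untreated replicates lay close together and the genotypes did not overlap, whereas the treated KO libraries lay on both sides of the untreated KO-labelled level. The log2 difference between untreated KO-labelled and control cells was -0.90 (SE 0.32), which was not called with all 8 libraries (adjusted p = 0.229, edgeR). It was called in the fit of the 4 untreated libraries alone (log2 -0.92, adjusted p = 0.0425), and with a single treated library of each genotype (adjusted p = 0.0367 and 0.0319), all with edgeR. After TGF-β the difference was -0.19 (95% interval -0.87 to 0.50), and it turned to 0.22 without treated KO 1. The TGF-β response in KO-labelled cells was 0.33 with both treated libraries and -0.20 without treated KO 2.

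The unevenness of the treated replicates was measured over the members and over the other metalloproteinases. Treated control 1 and treated KO 2 both exceeded their partners for *Mmp15*, *Timp1*, *Timp2*, *Timp3* and *Adamts1*, 5 of the 7 tested members, and were both below them for *Mmp11*. Over all genes tested, 34.1% were higher in both, 33.9% lower in both and 31.9% mixed. The gap was far wider for *Mmp13*, the gene of collagenase-3, which had 174 CPM in treated control 1 and 22.4 in treated control 2, and 57.0 in treated KO 1 and 667 in treated KO 2. *Mmp10* (stromelysin-2) was at 55.9 and 3.70 CPM in treated control and 1.47 and 84.3 in treated KO. *Mmp3*, *Mmp12* and *Mmp24* had the same order, with 0.106 to 4.45, 0 to 2.53 and 0.952 to 6.28 CPM, and *Mmp19* and *Mmp28* the opposite order. Whether this unevenness had a part in the differences of the members was not tested.

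**Figure D4:**
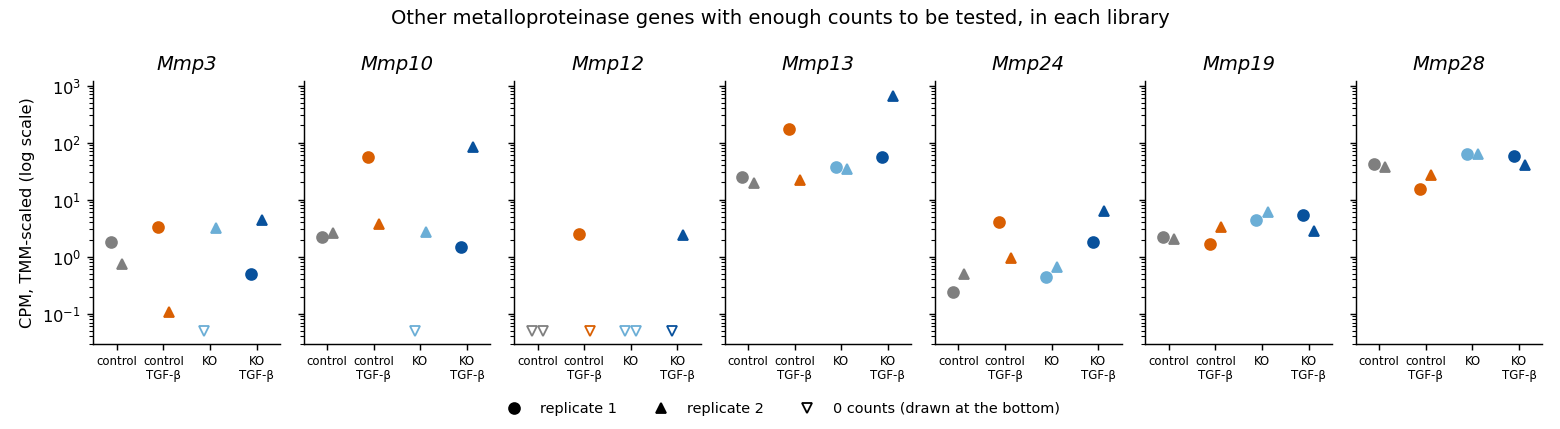
Levels of the 7 other metalloproteinase genes with enough counts to be tested, in TMM-scaled CPM on a shared log axis, with circles for replicate 1, filled triangles for replicate 2 and open triangles for 0 counts. In *Mmp10* and *Mmp13* the treated replicates of both genotypes lie far apart, for *Mmp13* at 174 and 22.4 CPM in control and 57.0 and 667 in KO.

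Of 18 other metalloproteinase genes, 7 could be tested and 6 had no count in any library. No gene of these was called by edgeR for TGF-β in control cells (2 at an unadjusted p below 0.05; DESeq2 called *Mmp28* and limma-voom none) or in KO-labelled cells (3 at an unadjusted p below 0.05, and 0 by DESeq2 and by limma-voom). The log2 responses of *Mmp13* were 2.15 (SE 1.05) and 3.33 (SE 1.08), with adjusted p of 0.225 and 0.105 in edgeR, and those of *Mmp10* 3.65 (SE 1.67) and 4.75 (SE 1.84). Before treatment *Mmp13* was at 19.4–24.8 CPM in control and 35.0–37.0 in KO-labelled cells, and *Mmp10* at 2.17–2.56 and 0–2.66. Treated control 2 (22.4 CPM of *Mmp13*) and treated KO 1 (1.47 CPM of *Mmp10*) lay within these ranges. The *Mmp13* response in control and the *Mmp10* response in KO-labelled cells thus rest on the other treated library. Between untreated genotypes none was called by edgeR, DESeq2 or limma-voom, with 2 at an unadjusted p below 0.05. Over all 13028 genes tested with edgeR, 3491 were below this limit for TGF-β in control and 2956 for TGF-β in KO-labelled cells. Between genotypes they numbered 1936 untreated and 4086 treated. After TGF-β *Mmp28* (epilysin) was higher in treated KO, with 15.1 and 27.3 CPM in treated control and 58.8 and 39.9 in treated KO (log2 1.22, SE 0.28, adjusted p = 0.0199, edgeR). This call was lost without treated KO 1 (log2 0.93, adjusted p = 0.0795) and held without any other library, in edgeR.

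Of the 18 other ADAMTS genes 4 were tested. *Adamts7*, a protease of cartilage oligomeric matrix protein, was at 5.55 and 6.59 CPM in control, 12.9 and 10.8 in treated control, 15.2 and 16.5 in KO-labelled cells and 26.8 and 24.4 in treated KO, without overlap between groups. It rose with TGF-β in control cells (log2 0.97, SE 0.23, adjusted p = 0.0328) and was higher in KO-labelled than in control cells untreated (1.39, SE 0.23, adjusted p = 0.0202) and treated (1.11, SE 0.21, adjusted p = 0.0109), all with edgeR. With limma-voom no gene of this list was called for TGF-β in control cells or between untreated genotypes, so these 2 calls of *Adamts7* were lost. DESeq2 called *Adamts7* in both comparisons, and also *Adamts6* for TGF-β in control cells and *Adamts15* between untreated genotypes. *Adamts15* was higher in treated KO than in treated control (log2 2.40, SE 0.61, adjusted p = 0.0301, edgeR), from 4 and 16 counts against 85 and 49. In edgeR fits with a library left out, the *Adamts7* call for TGF-β in control cells was lost without control 1, control 2, treated control 1, KO 1, KO 2 or treated KO 1 (adjusted p = 0.231, 0.114, 0.0728, 0.0617, 0.0622 and 0.0517), at log2 values of 0.81 or more. Its untreated genotype call was lost without control 1, control 2, KO 1 or KO 2 (adjusted p = 0.181, 0.124, 0.117 and 0.158, at log2 values of 1.26, 1.51, 1.44 and 1.32), and its treated one without treated KO 2 (adjusted p = 0.0506, log2 1.19). The *Adamts15* call was lost without control 1, control 2, treated control 1, treated KO 1 or treated KO 2 (adjusted p = 0.0508, 0.0508, 0.0654, 0.111 and 0.051). Its log2 value was 1.69 without treated control 1 and 3.81, still called (adjusted p = 0.0177, edgeR), without treated control 2. In KO-labelled cells edgeR called none of the 4 for TGF-β, with 2 at an unadjusted p below 0.05, while DESeq2 called *Adamts6* and limma-voom none. Of the 9 membrane ADAM genes 6 were tested and none was called in any comparison by edgeR, DESeq2 or limma-voom, with at most 1 at an unadjusted p below 0.05. The other inhibitors *Timp4*, *Reck*, *A2m*, *Spock1*, *Spock2* and *Spock3* had no count in any library.

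Genes whose products process or assist these proteases were also followed, 7 of 8 of them with enough counts. *Furin*, the convertase that removes the propeptides of several metalloproteinases, MMP11 and MMP14 among them, was at 132 and 118 CPM in control, 143 and 105 in treated control, 121 and 121 in KO-labelled cells and 265 and 334 in treated KO. Treated KO stood above the other groups, which overlapped. The log2 rise in KO-labelled cells was 1.31 (SE 0.18, adjusted p = 0.0041) and the excess over treated control 1.27 (SE 0.18, adjusted p = 0.00378), with edgeR. *Pcsk6*, another proprotein convertase (PACE4), was at 39.3 and 40.6 CPM in control and 41.0 and 35.2 in treated control, against 5.95 and 7.84 in KO-labelled cells and 9.29 and 7.87 in treated KO. It was thus lower in KO-labelled than in control libraries by log2 differences of -2.51 (SE 0.22, adjusted p = 0.000905) untreated and -2.15 (SE 0.21, adjusted p = 0.000775) treated, with edgeR. *Tspan5*, a tetraspanin partner of ADAM10, fell after TGF-β in control cells from 53.3 and 43.7 to 27.1 and 21.4 CPM (adjusted p = 0.013), and *Tspan14*, of the same family, rose by 1.11 in KO-labelled cells (adjusted p = 0.024) and was 0.77 above treated control (adjusted p = 0.049), with edgeR. Both *Pcsk6* calls and the treated *Furin* call held without each of the 8 libraries in turn. The *Furin* rise was not called without KO 1 or KO 2 (adjusted p = 0.0586 and 0.063), at log2 1.31 in both fits, the *Tspan5* fall without control 1 (adjusted p = 0.141, log2 -0.85), and the *Tspan14* rise without KO 1, KO 2 or treated KO 2 (adjusted p = 0.109, 0.205 and 0.114, at log2 values of 1.25, 0.98 and 1.04), with edgeR. The treated *Tspan14* difference was called without treated control 1 (log2 1.17) and lost without any other library, with adjusted p between 0.077 and 0.218 in edgeR and a log2 value of 0.47 without treated control 2. None of these genes was called by edgeR for the interaction, with 3 at an unadjusted p below 0.05, while DESeq2 called *Furin* and limma-voom none.

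For each called member, the genes with the most similar course of log2 CPM over the 8 libraries were sought among 9499 or 9500 genes with a mean of at least 10 CPM. These were *Ltbp1* (r = 0.988), *Adarb1* (0.985) and *Trpc4ap* (0.985) for *Mmp14*, and *Pcolce* (0.996), *Spg7* (0.994) and *Mep1a* (0.991) for *Mmp15*. For *Timp1* they were *Rhob* (0.995), *Fgd6* (0.993) and *Tbc1d1* (0.993), and for *Timp3* *Ctbp2* (0.991), *5730528L13Rik* (0.986) and *Zwint* (0.986). With 8 points that share groups and libraries, and the highest of so many values taken, these Pearson correlations describe likeness only.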

How the data were processed

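The authors deposited raw counts of reads per gene for 8 libraries in a single table, without normalization, and all 8 columns were used. The paper names alignment with subjunc to mm10 and mm9 and removal of duplicates, whereas the submitters' processing notes name HISAT2, limma and mm10. The paper and the labels also differ on library kit, sequencer and read layout, and how reads were counted, and on which strand, is not given in the sources used here. All 37310 gene identifiers matched GENCODE vM1 on NCBIM37 (mm9), which gave positions and exon lengths.

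The 13028 genes passing filterByExpr were tested with edgeR 4.0.16 (R 4.3.3) after TMM scaling, which also gave CPM, with a model of the 4 groups fitted to all 8 libraries by glmQLFit and glmQLFTest without a block, and Benjamini-Hochberg adjustment over all genes tested. The thresholds were those of the study. The interaction was called by adjusted p alone. Standard errors are the absolute log2 fold change divided by the square root of F, and intervals are 95%. The common biological coefficient of variation was 0.180, with 4 residual and 5.50 prior degrees of freedom. A fold against a group at 0 was computed against 3 counts per library. Library totals ranged from 4297832 to 13574397 counts, and limits from counts cover counting error only. The test was also run on simulated data, the outcome of which is not reported here, so nothing is drawn from it. Alternatives were DESeq2 1.42.0, voom in limma 3.58.1, other size factors and filters, thinned counts, a replicate block, fits of 4 libraries and leaving out each library. Exchanged replicate numbers and the fits with a single treated library per genotype, and leaving out libraries for genes that are not members, were added after seeing the data.

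The members and the lists of other genes were chosen with earlier results of these data known. Named are all members, called genes of the lists (up to 5 per comparison), the treatment check (a gene of which is not reported here), the targeted gene and the 3 most similar genes per called member (Pearson correlation of log2 CPM with a prior count of 2). Genes named beyond this rule, such as *Mmp3*, *Mmp10*, *Mmp12*, *Mmp13*, *Mmp19* and *Mmp24*, were chosen after their values were seen. Sequences are from RefSeq.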

Additional observations from a re-analysis of the deposited data

How the results depend on the processing

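Over the alternatives, 602 single values of the members kept direction and side of the thresholds, 23 lost and 6 gained a call, and 26 reversed. The causes were not tested.

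Replicate numbers come from the labels. Deviations of same-numbered libraries correlated with r = 0.297 (TGF-β in control), -0.00915 (TGF-β in KO-labelled cells), 0.098 (untreated genotypes) and -0.473 (treated genotypes), so the numbers were not taken to pair libraries. With the replicate block, called genes were 831, 676, 150 and 1490 in these comparisons instead of 1194, 889, 238 and 1959, *Mmp15* lost its TGF-β call in control cells (adjusted p = 0.0576, edgeR), and no other member call changed. With exchanged numbers 2809 genes were called between treated genotypes.

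Members called with a library left out numbered 1–3 (TGF-β in control), 0–3 (TGF-β in KO-labelled cells), 1 (untreated genotypes), 2–4 (treated genotypes) and 0 (interaction), and all called genes 145–1484, 136–1381, 42–390, 477–2762 and 0–6. Between untreated genotypes 2 members were called without a filter, in the fit of 4 libraries and with only treated control 2 and treated KO 1, and 3 with only treated control 1 and treated KO 2. Between treated genotypes the fit of 4 libraries called 1.

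All genes called without a filter were 2021 (TGF-β in control), 1832 (TGF-β in KO-labelled cells), 756 (untreated) and 211 (interaction), and in fits of 4 libraries 470 (TGF-β in control), 804 (untreated) and 410 (treated). DESeq2 called 428 and voom 137 untreated, and DESeq2 25 for the interaction. With only treated control 2 and treated KO 1 there were 2460 (TGF-β in control), 853 (untreated) and 26 (interaction), and with only treated control 1 and treated KO 2 there were 1914, 1922 (TGF-β in KO-labelled cells), 857 and 26.

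No reversed value was called. With a library left out, log2 values ranged from -0.15 to 1.01 (*Mmp11*) and -0.22 to 0.17 (*Timp2*) for TGF-β in control, -0.20 to 0.75 (*Adamts1*) for TGF-β in KO-labelled cells, -0.022 to 0.087 (*Timp1*) untreated, and -0.15 to 0.27 (*Timp1*) and -0.74 to 0.22 (*Adamts1*) treated. For the interaction they ranged from -0.43 to 0.79 (*Mmp11*), -0.16 to 0.26 (*Timp1*) and -0.037 to 0.36 (*Timp2*). Other reversals were *Timp1* untreated without a filter (-0.00073), the *Mmp11* interaction in thinned counts (-0.035), and, with only treated control 2 and treated KO 1, *Adamts1* for TGF-β in KO-labelled cells (-0.20) and *Timp1* treated (-0.046) and in the interaction (-0.056). With only treated control 1 and treated KO 2 they were *Mmp11* (-0.15) and *Timp2* (0.18) for TGF-β in control and *Adamts1* treated (0.12).

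A count of 0 allows up to 0.661 CPM in the shallowest library, KO 1, and 0.238 in the deepest, treated KO 2. Where a library left out leaves 1 in an arm, that library is assumed to vary like the other groups. With 2 libraries per group, a value that was not called is not shown to be equal.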
